A study of Mus musculus with 20 samples.

Results

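Messenger RNA of 10 genes of the myostatin and IGF1 growth signals was examined in mouse hindlimb muscle. The genes were taken by symbol from the deposited count table, in which each of Mstn, Fst, Fstl1, Fstl3, Acvr2b, Igf1, Igf1r, Igfbp5, Eif4ebp1 and Irs1 stood among 21844 genes, and all 10 passed the filter on low counts that kept 14359 genes for testing. The study set mice made to lose BMAL1, a transcription factor of the circadian clock, from their muscle against mice that were not, each either sedentary or trained daily on a treadmill for 6 weeks. Every mouse carried the genotype given as Cre+:iMSBmal1 fl/fl, that is, a floxed Bmal1 gene and an inducible, muscle-specific Cre, so the vehicle groups carried the floxed allele and the Cre as well. The 4 groups, of 5 libraries each, were vehicle with no exercise (vehicle sedentary), iMSBmal1KO with no exercise (knockout-labelled sedentary), vehicle with exercise training (vehicle trained) and iMSBmal1KO with exercise training (knockout-labelled trained). The labels do not give the promoter that drives Cre, the agent that switches it on, or the age of the mice. They name the gastrocnemius in one field and the tibialis anterior in another, and the time after the last bout is 47 hours in the series design and 48 hours in the sample labels. Nothing in the labels says that the libraries of a group came from separate animals, so p-values measure only the spread between these samples.

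Myostatin, the product of Mstn, is a secreted TGF-β family ligand that limits muscle mass. It binds the type II activin receptor ACVR2B, which recruits a type I receptor such as ACVR1B and leads to phosphorylation of SMAD2 and SMAD3, and follistatin-type proteins can hold the ligand away from its receptor. IGF1 acts in the opposite direction on muscle mass, through its receptor IGF1R, the docking protein IRS1 and the kinases AKT and mTOR, to relieve the block that 4E-BP1 (Eif4ebp1) places on translation. IGF-binding proteins, of which Igfbp5 is abundant in muscle, carry IGF1 and control its access to the receptor.

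Library totals lay between 10610333 and 19153527 estimated counts. In the knockout-labelled trained group, 2 pairs of libraries were nearly identical. Relative to counting noise, libraries 1 and 4 differed by 1.86 at low and 2.38 at high counts. Libraries 3 and 5 differed by 2.05 and 1.76. Every other pair of libraries stood at 6.38 or more at high counts. Each of the 2 pairs was therefore summed and counted as 1 sample, which leaves n = 3 in that group and 18 samples in all. Vehicle-trained library 2 stood apart: 3689 of the 14359 tested genes lay more than 2-fold from the rest of its group, against 476 genes in the next library. It was kept in the fits, and each result is also given without it where it matters. The targeted gene, listed as Arntl, was not lower in knockout-labelled muscle, apart from the comparison with vehicle-trained library 2. It averaged 6.79 ± 0.890 CPM (SD, n = 5; CPM is the count scaled to a common library total) in vehicle sedentary and 13.2 ± 3.28 CPM (SD, n = 5) in knockout-labelled sedentary muscle (two-sided exact permutation test, p = 0.00794, the smallest that 5 against 5 can give). In trained muscle it averaged 6.45 ± 0.156 CPM (SD, n = 4) without vehicle-trained library 2, which held 132 CPM, and 10.9 ± 4.46 CPM (SD, n = 3) in the knockout-labelled samples (exact permutation p = 0.0571, the smallest that 4 against 3 can give, and p = 0.786 with that library, which brings the vehicle mean to 31.6 ± 56.3 CPM, SD, n = 5). The table holds 1 value per gene and does not show which exons the reads came from, so this gene does not check the labels and every direction below is that of the labelled groups. Of the markers of muscle fibres, all 9 were in the table, and their summed level lay between 50742 CPM in vehicle-trained library 2 and 85085 CPM, with every other sample at 65251 CPM or more.

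Promoter sequences are shown for the 3 members whose lower levels in knockout-labelled muscle the results turn on, and for Irs1, the member with the E-box that BMAL1 and its partner CLOCK are known to bind. They are RefSeq sequences of build GRCm38.p6 covering the 250 bases before the gene start, written 5′ to 3′ on the gene's strand. Of the 10 members, 8 matched an entry (not Fst or Eif4ebp1). Any other start of these genes was not examined. Capitals mark the TATA box TATAAA in Mstn and the canonical E-box CACGTG in Irs1.
Mstn (chr1:53061390-53061639, plus strand): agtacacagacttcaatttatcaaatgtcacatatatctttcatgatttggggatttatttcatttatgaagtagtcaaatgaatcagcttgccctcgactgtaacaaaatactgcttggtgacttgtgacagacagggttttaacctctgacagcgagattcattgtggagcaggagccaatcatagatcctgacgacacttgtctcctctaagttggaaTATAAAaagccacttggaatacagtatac
Igf1 (chr10:87860861-87861110, plus strand): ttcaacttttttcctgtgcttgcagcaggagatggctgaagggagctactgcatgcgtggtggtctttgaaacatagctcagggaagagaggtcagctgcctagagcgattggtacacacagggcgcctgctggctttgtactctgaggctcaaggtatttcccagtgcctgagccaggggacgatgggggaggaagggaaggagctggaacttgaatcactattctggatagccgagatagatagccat
Igfbp5 (chr1:72874866-72875115, minus strand): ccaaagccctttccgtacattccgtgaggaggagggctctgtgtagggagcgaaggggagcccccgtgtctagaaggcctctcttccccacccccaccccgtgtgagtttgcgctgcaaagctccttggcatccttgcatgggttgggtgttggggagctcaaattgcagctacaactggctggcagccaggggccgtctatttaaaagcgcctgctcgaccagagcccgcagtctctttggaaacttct
Irs1 (chr1:82291440-82291689, minus strand): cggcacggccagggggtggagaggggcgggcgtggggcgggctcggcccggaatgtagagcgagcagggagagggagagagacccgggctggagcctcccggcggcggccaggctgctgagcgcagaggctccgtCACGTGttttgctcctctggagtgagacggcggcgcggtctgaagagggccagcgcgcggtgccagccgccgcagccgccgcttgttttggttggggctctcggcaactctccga
On either strand, CACGTG occurred in 6.02% of 32817 windows of the same length in the table, and among the 8 members with an entry in Irs1 only, 115 bases before the start. TATAAA occurred in 12.4% of windows, and among the members in Mstn and, on the reverse strand, in Fstl3, at 29 bases in each. The looser E-box CANNTG, which includes CACGTG, occurred in 66.2% of windows with a median of 1 match. It matched at 4 places in Mstn (229, 174, 52 and 19 bases before the start), at 3 places in Fstl3, at 1 place each in Igf1 (157 bases), Igfbp5 (77 bases) and Irs1 (115 bases), and at none in Igf1r, Acvr2b or Fstl1. The near-canonical E-box CACGTT (3.85% of windows) and the D-box TTATGTAA (0.817% of windows) matched in none of the 8, which says only that these letters are not in this window.

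The members spanned more than 2 orders of magnitude in abundance. Counts were divided by exon length and scaled to a common total per sample so that genes could be compared. On this length-scaled level, which has the scale of TPM, vehicle sedentary muscle held Igfbp5 at 262 ± 44.6 and Mstn at 131 ± 23.3 (SD, n = 5), at percentiles 98.6 and 97.1 of all genes in the table. Fstl1 at 44.5 ± 15.8 and Eif4ebp1 at 33.1 ± 3.61 came next, with overlapping ranges, followed by Irs1 at 10.6 ± 1.62 and Igf1 at 10.4 ± 1.38, whose ranges also overlapped. Fst at 3.40 ± 0.388, Acvr2b at 3.21 ± 0.559 and the IGF1 receptor gene Igf1r at 3.12 ± 0.310 could not be ordered beyond their spread, and Fstl3 at 1.26 ± 0.537 was lowest. In knockout-labelled trained muscle the top of the order was closer together, with Igfbp5 at 83.9 ± 7.92 and Mstn at 62.7 ± 10.5 (SD, n = 3), and the lowest Igfbp5 sample, at 75.0, lay just above the highest Mstn sample, at 74.4.

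**Figure D1:**
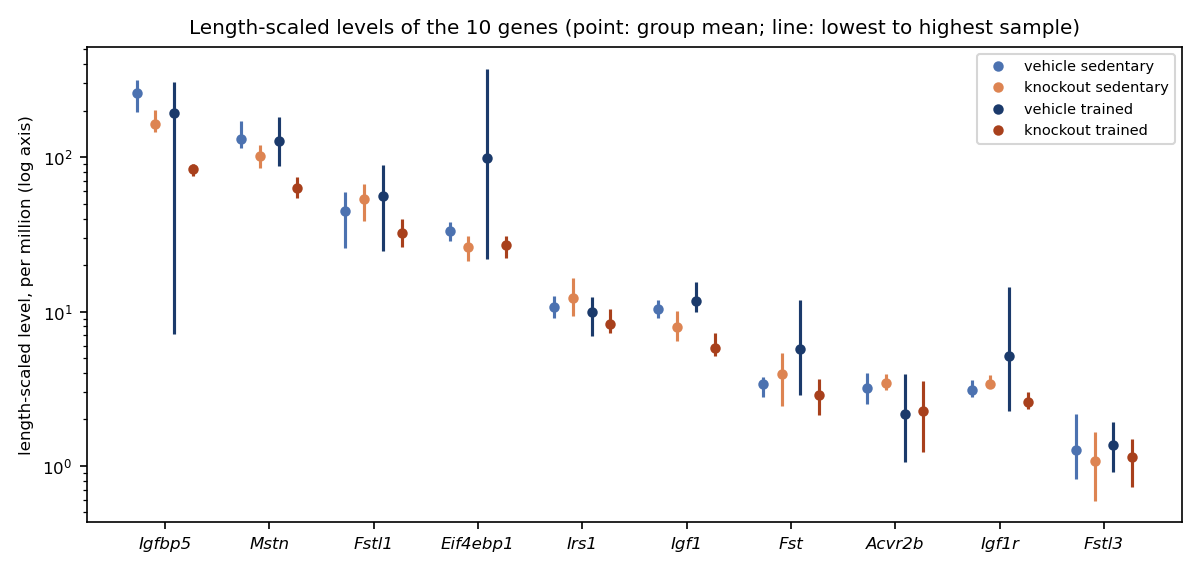
Length-scaled level (TPM scale, log axis) of the 10 genes in each of the 4 groups; points are group means and lines run from the lowest to the highest sample. Igfbp5 and Mstn have the highest means in every group, and in vehicle trained muscle the long lines of Igfbp5, Eif4ebp1, Fst and Igf1r end at vehicle-trained library 2.

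Changes between groups were fitted with edgeR's quasi-likelihood test, and a gene was called when its Benjamini-Hochberg adjusted p over all 14359 tested genes was under 0.05. The knockout comparison in trained muscle was the one in which members were called: Mstn and Igf1 were lower in knockout-labelled muscle, 2 of 10 members, where 3.29% of all tested genes were called in either direction and 1.3% as lower. Their groups did not overlap, which held for 7.95% of tested genes, and the median log2 change of the 10 members was -0.90, against -0.027 over all genes. Without vehicle-trained library 2 the called members were 3, Igfbp5 joining them, where 8.66% of genes were called and 3.65% were called lower. The members' median was then -0.29, against 0.0046 over all genes.

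In sedentary muscle edgeR called 0 of the 10 members at an adjusted p under 0.05, where 2.33% of all tested genes were called. Mstn and Igf1 were the 2 members with an unadjusted p under 0.05, a level that 9.81% of genes reached, and DESeq2 called 0 members while limma-voom with sample quality weights called Mstn and Igfbp5, both lower. Igfbp5 was the only member whose groups did not overlap, where 9.4% of genes did not. Without vehicle-trained library 2, which belongs to neither sedentary group but enters the shared estimate of spread, edgeR called Igfbp5, where 6.98% of genes were called. The members' median log2 change was -0.12, with 5 members above 0 and 5 below, against 0.012 over all genes.

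For training, edgeR called 0 of the 10 members in vehicle muscle and 0 in knockout-labelled muscle, and 0 in the interaction, the test of whether the knockout difference depends on training. The percentage of all tested genes called was 0 in each of these 3 comparisons. At an unadjusted p under 0.05 stood 3 members in vehicle muscle (Fst, Igf1r and Eif4ebp1, where 15.2% of genes did), 1 in knockout-labelled muscle (Mstn, 9.71% of genes) and 2 in the interaction (Mstn and Fst, 7.49% of genes). The vehicle changes of these 3 members rested largely on vehicle-trained library 2. With it the log2 changes were 0.88 for Fst, 0.87 for Igf1r and 1.74 for Eif4ebp1. Without it they were 0.39, -0.036 and -0.059. The interaction of Fst was -1.07 with it and -0.58 without it. DESeq2 called 0 members in each of the 3 comparisons. Limma-voom with sample quality weights called 0 in vehicle muscle, 3 in knockout-labelled muscle (Mstn and Igfbp5 lower, Eif4ebp1 higher after training) and 1 in the interaction (Mstn). In that fit the summed knockout-labelled trained libraries 3 and 5 had a weight of 5.31. The other samples of that group had 0.332 and 0.899, so its calls on this group rest mostly on the summed libraries 3 and 5. In knockout-labelled muscle the groups of 3 members did not overlap (Mstn, Igf1r and Igfbp5, all lower when trained), which held for 11.9% of genes, and in vehicle muscle those of 0 members did not, which held for 2.98% of genes. Without vehicle-trained library 2, edgeR still called 0 members for training and for the interaction, where it called 0% of genes in vehicle muscle and in the interaction and 0.843% in knockout-labelled muscle. The knockout comparison in sedentary muscle and that in trained muscle share no samples, whereas each training comparison shares a group with both of them.

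**Figure D2:**
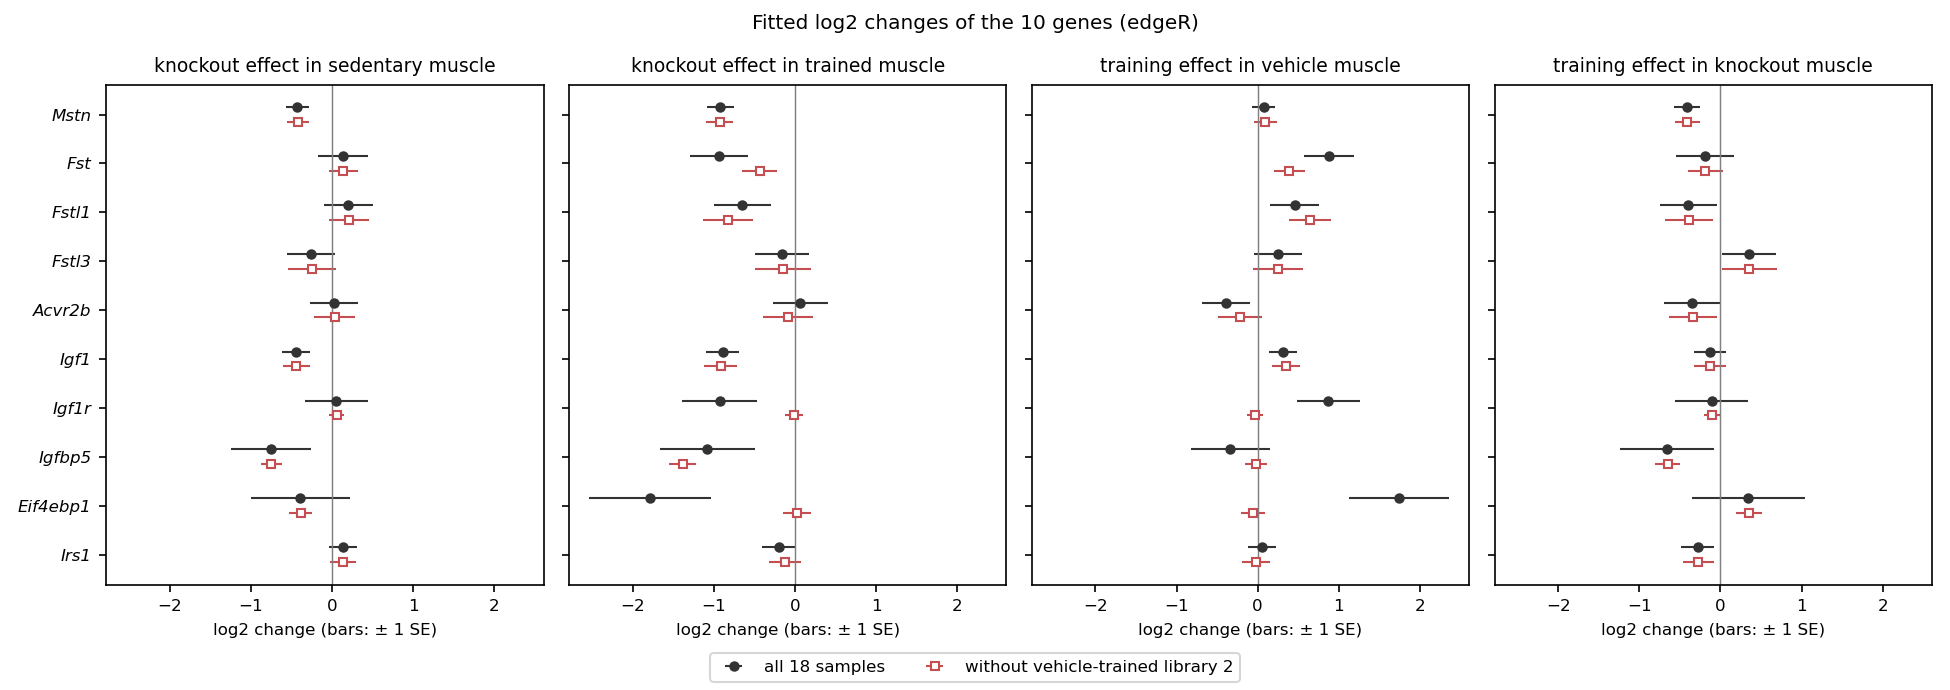
Fitted log2 changes of the 10 genes in the 4 pairwise comparisons (x axis; bars are 1 SE either side), from all 18 samples (filled circles) and without vehicle-trained library 2 (open squares). Mstn and Igf1 keep nearly the same values in both fits, while Eif4ebp1 and Igf1r move to near 0 without that library in trained muscle and Igfbp5 keeps its direction with a smaller error.

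Mstn, the ligand of the myostatin arm, was lower in knockout-labelled than in vehicle trained muscle. Sedentary vehicle samples held 215, 149, 177, 161.5 and 153 CPM and knockout-labelled sedentary samples 122, 153, 119.8, 117 and 146 CPM. Trained vehicle samples held 129, 159, 168, 232 and 188 CPM, and the 3 knockout-labelled trained samples 80.2, 92.4 and 96.9 CPM. All 3 knockout-labelled trained samples thus lay below every other sample of the study, whereas the sedentary groups overlapped, since knockout-labelled library 2, at 153 CPM, lay within the vehicle range. In trained muscle the fitted difference was a log2 change of -0.92 (SE 0.166), 1.89-fold lower, with an edgeR adjusted p of 0.00390. In sedentary muscle it was -0.43 (SE 0.140), 1.35-fold lower, with an edgeR adjusted p of 0.158, and it was called when the 10 sedentary samples were fitted alone (edgeR adjusted p 0.0337). The call in trained muscle held when any 1 of the 18 samples was left out (highest adjusted p 0.0368). It was lost when only the trained groups entered the edgeR fit (adjusted p 0.161), and was made in that fit without vehicle-trained library 2 (adjusted p 0.0268), an alternative chosen after seeing the data.

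Across training, Mstn averaged 171 ± 26.8 CPM in sedentary and 175 ± 38.1 CPM in trained vehicle muscle (SD, n = 5 each), a log2 change of 0.074 (SE 0.139). In knockout-labelled muscle it averaged 132 ± 16.8 CPM (SD, n = 5) when sedentary and 89.8 ± 8.67 CPM (SD, n = 3) when trained. These groups did not overlap, but the log2 change of -0.42 (SE 0.163) did not pass the test over all genes (edgeR adjusted p = 0.399). The interaction was -0.49 (SE 0.214), with an edgeR adjusted p of 0.661, so edgeR did not show a difference of the knockout effect between training states for Mstn. Limma-voom with sample quality weights called both the interaction (-0.62, adjusted p 0.0282) and the training change in knockout-labelled muscle (-0.465, adjusted p 0.00503). The answer for Mstn thus depended on the method.

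**Figure D3:**
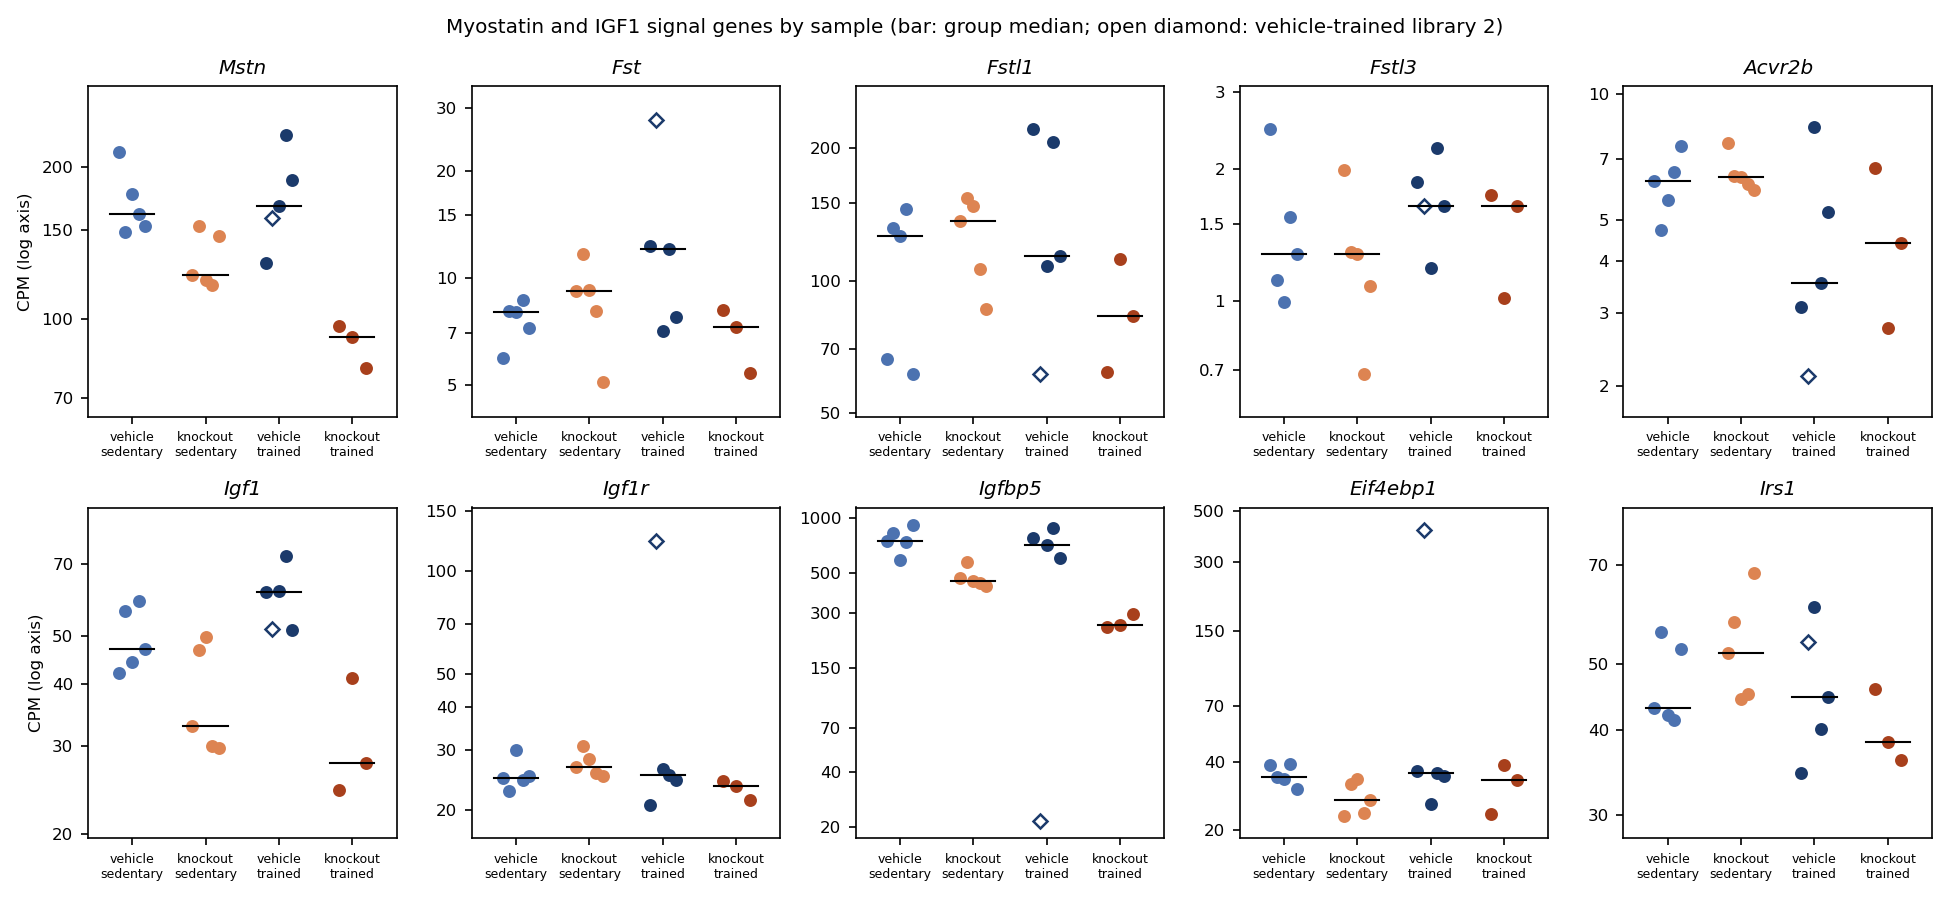
CPM (log axis) of each of the 10 genes by sample in the 4 groups; points are samples, bars are group medians, and the open diamond is vehicle-trained library 2. The 3 knockout-labelled trained samples of Mstn lie between 80.2 and 96.9 CPM, below the other 15 samples, and the diamond lies far from its group for Eif4ebp1, Igf1r, Igfbp5 and Fst.

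Among the follistatin-type genes, edgeR called none in any comparison. Limma-voom with sample quality weights called Fst (log2 change -0.62, adjusted p 0.0140) and Fstl1 (-0.65, adjusted p 0.0473) lower in knockout-labelled trained muscle. That fit gave most of the weight in the knockout-labelled trained group to the summed libraries 3 and 5. Fst, follistatin, which binds myostatin and activins, lay between 5.08 and 12.3 CPM in 17 of the 18 samples. Vehicle-trained library 2 was the exception at 27.7 CPM, 2.83 times the mean over the rest of its group. With that library the log2 difference in trained muscle was -0.93 (SE 0.360, edgeR adjusted p = 0.183), and without it -0.44 (SE 0.219, adjusted p = 0.252). Sedentary means were 7.57 ± 1.04 CPM in vehicle and 8.65 ± 2.40 CPM in knockout-labelled muscle (SD, n = 5 each). Fstl3, a relative that also binds activins and myostatin, was near the detection filter at 0.683 to 2.48 CPM, and its group means lay between 1.27 ± 0.473 and 1.72 ± 0.379 CPM (SD, n = 5 each). Part of the exons of Fst, Fstl3 and Irs1 overlap a gene on the opposite strand (115, 1157 and 2822 bases), and the strandedness of the libraries is not given in the sources used here, so these 3 counts may include reads of the neighbour.

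Fstl1, a secreted glycoprotein with a follistatin-like domain, was the most abundant of the 3 per length. Vehicle trained samples held 222, 61.5, 108, 207 and 114 CPM, and knockout-labelled trained samples 62.1, 83.4 and 112 CPM. These ranges overlapped and the log2 difference was -0.65 (SE 0.352, edgeR adjusted p = 0.355). Vehicle-trained library 2, at 61.5 CPM, was the lowest of its group. Without it the difference was -0.83 (SE 0.308, edgeR adjusted p = 0.107), and the ranges still overlapped. The training change in vehicle muscle was 0.46 with that library and 0.64 without it. The interaction was -0.85 with it and -1.03 without it, and edgeR called none of these. The genes whose values ordered the 18 samples most like Fstl1 were Mfap5 (Spearman rho 0.984) and Cd34 (0.979). Summed markers of fibroblasts and fibro-adipogenic cells, 8 of 8 in the table with none under 1 CPM throughout, spanned 1093 to 2370 CPM in vehicle sedentary, 1427 to 2584 in knockout-labelled sedentary, 1820 to 3256 in vehicle trained and 1080 to 2237 in knockout-labelled trained samples. With all 18 samples edgeR called none of the 8 in any comparison. Without vehicle-trained library 2 it called Col3a1 higher in sedentary knockout-labelled muscle, where 6.98% of all tested genes were called. The median log2 change of the 8 was -0.30 in the trained knockout comparison (-0.51 without that library) and 0.37 in the sedentary one. For training it was 0.48 in vehicle muscle (0.67 without that library) and -0.26 in knockout-labelled muscle. An unadjusted edgeR p under 0.05 was reached by 1 in each knockout comparison (all genes: 9.81% in sedentary and 17.2% in trained muscle). The part of these markers in the Fstl1 values was not tested. In whole muscle, fewer cells of a type and less RNA per cell cannot be told apart.

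At the receptor step, Acvr2b itself was not called by edgeR in any comparison. Sedentary samples lay between 4.72 and 7.51 CPM in vehicle and between 5.89 and 7.64 CPM in knockout-labelled muscle, a log2 difference of 0.024 (SE 0.293). Trained samples ranged more widely, from 2.11 to 8.37 CPM in vehicle and from 2.75 to 6.66 CPM in knockout-labelled muscle, with a log2 difference of 0.065 (SE 0.341), which changed sign to -0.087 (SE 0.306) without vehicle-trained library 2.

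The type I receptor gene Acvr1b, which partners ACVR2B in myostatin signalling and was taken from a list of 30 other genes of the myostatin and activin arm, was lower in both knockout comparisons. Sedentary vehicle samples held 119, 103, 99.3, 101 and 95.4 CPM and knockout-labelled sedentary samples 60.2, 65.5, 58.7, 60.5 and 52.2 CPM. Trained vehicle samples held 74.3, 158, 86.8, 122 and 113 CPM, and knockout-labelled trained samples 39.1, 39.8 and 54.4 CPM. The groups overlapped in neither state. Of all tested genes, 9.4% had groups that did not overlap in sedentary and 7.95% in trained muscle. The log2 difference was -0.86 (SE 0.163), 1.82-fold lower, in sedentary muscle (edgeR adjusted p = 0.00516) and -1.29 (SE 0.197), 2.45-fold lower, in trained muscle (edgeR adjusted p = 0.00105). Both calls held when any 1 sample was left out. Vehicle-trained library 2, at 158 CPM, was the highest of its group. Without it the difference in trained muscle was -1.09 (SE 0.137), 2.13-fold lower (edgeR adjusted p = 4.46e-05). In trained muscle the call was lost when only the trained groups entered the edgeR fit (adjusted p = 0.161), and made there without vehicle-trained library 2 (adjusted p = 0.0130).

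Of that list, 27 genes were tested. In sedentary muscle, where 2.33% of all tested genes were called, 1 was called lower (Acvr1b) and 1 higher, the TGF-β ligand gene Tgfb3, at 29.9 ± 4.53 CPM in vehicle and 42.8 ± 2.72 CPM in knockout-labelled samples (SD, n = 5 each), a log2 change of 0.47 (SE 0.110, edgeR adjusted p = 0.0261). In trained muscle 4 were called lower and 0 higher, where 1.3% of all tested genes were called lower and 3.29% in either direction. Besides Acvr1b these were Tgfbr2, the type II receptor for TGF-β, Tgfbr3, the co-receptor betaglycan, and Smad3, a transcription factor that the type I receptors activate. Tgfbr2 fell from 75.1 ± 22.8 CPM (SD, n = 5) to 35.4 ± 5.58 CPM (SD, n = 3), a log2 change of -1.05 (SE 0.229, edgeR adjusted p = 0.0159). The changes of Tgfbr3 (-0.89, SE 0.228) and Smad3 (-0.66, SE 0.173) had edgeR adjusted p-values of 0.0375 and 0.0434. In all 3 genes, named because they were called in this comparison, the groups did not overlap, which held for 7.95% of tested genes. Vehicle-trained library 2 held the highest value of its group in each (113, 118 and 118 CPM). Without it the changes were -0.82 for Tgfbr2, -0.64 for Tgfbr3 and -0.53 for Smad3, and all 3 remained called by edgeR (adjusted p 0.00476, 0.0159 and 0.0287). Of the 18 samples left out in turn, the call was lost in 2 cases for Tgfbr2 (highest adjusted p 0.104), 9 for Tgfbr3 (0.160), 13 for Smad3 (0.185) and 6 for Tgfb3 (0.102); those of Tgfbr2 were the 2 summed knockout-labelled trained samples. Leaving out vehicle-trained library 2 brought the list to 6 called lower in trained muscle, adding Tgfbr1 and Bmp1. Of all genes, 3.65% were then called lower and 8.66% in either direction. In sedentary muscle it brought the list to 2 higher and 2 lower, adding Inhba and Smad7 (6.98% of all genes called). With only the trained groups in the edgeR fit, the adjusted p was 0.286 for Tgfbr2, 0.407 for Tgfbr3 and 0.356 for Smad3.

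**Figure D4:**
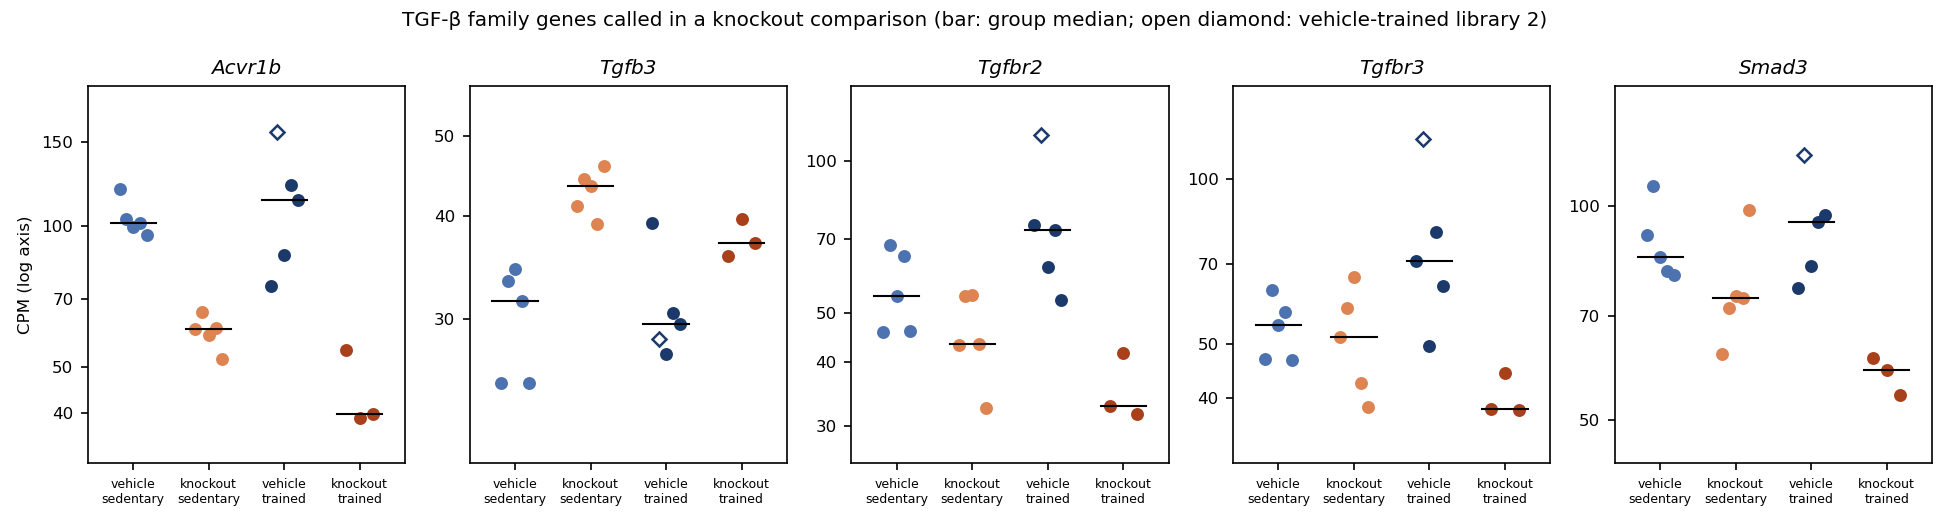
CPM (log axis) by sample of the 5 genes of the myostatin and activin list that were called in a knockout comparison; points are samples, bars are group medians, and the open diamond is vehicle-trained library 2. Acvr1b is lower in knockout-labelled samples in both training states, and Tgfb3 is higher in the sedentary ones.

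The neighbouring BMP arm, whose ligands signal through SMAD1, SMAD5 and SMAD9, had no call. Of its 19 tested genes edgeR called 0 in any comparison, with 5 at an unadjusted p under 0.05 in sedentary and 4 in trained muscle, where 9.81% and 17.2% of all tested genes were. The median log2 change of the myostatin and activin list was -0.30 in trained muscle, and that of the BMP list -0.19, against -0.027 over all genes. When vehicle-trained library 2 was left out, Acvr1 and Nog were called lower and Fbxo30 and Bmp5 higher in the sedentary comparison, where 6.98% of genes were called, and Fbxo30 and Bmpr1a lower after training in knockout-labelled muscle, where 0.843% were.

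Igf1, the growth factor of the IGF arm, was lower in knockout-labelled than in vehicle trained muscle. Sedentary vehicle samples held 42.2, 56.1, 44.4, 58.8 and 47.2 CPM and knockout-labelled sedentary samples 33.0, 46.9, 49.9, 30.1 and 29.7 CPM. Trained vehicle samples held 61.3, 51.7, 61.7, 72.6 and 51.6 CPM, and knockout-labelled trained samples 24.5, 27.8 and 41.1 CPM. The trained groups did not overlap, and the highest of the 3 knockout-labelled trained samples was library 2 of that group. The sedentary groups overlapped through knockout-labelled libraries 2 and 3. In trained muscle the log2 difference was -0.89 (SE 0.202), 1.85-fold lower, with an edgeR adjusted p of 0.0201. In sedentary muscle it was -0.45 (SE 0.170), with an edgeR adjusted p of 0.291. Training gave a log2 change of 0.31 (SE 0.169) in vehicle and -0.13 (SE 0.197) in knockout-labelled muscle, and the interaction was -0.44 (SE 0.261, edgeR adjusted p = 0.695).

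The Igf1 call rested on few samples. It was lost by edgeR without vehicle-trained library 4 (adjusted p 0.0534), without the summed knockout-labelled trained libraries 1 and 4 (0.109) and without the summed libraries 3 and 5 (0.124), with log2 changes between -1.15 and -0.69 over all 18 omissions. It was lost when only the trained groups entered the edgeR fit (adjusted p 0.237) and made there without vehicle-trained library 2 (0.0433). Macrophages also make IGF1, and their summed markers, 8 of 8 in the table, spanned 168 to 440 CPM in vehicle trained and 59.1 to 331 CPM in knockout-labelled trained samples, against 60.1 to 242 CPM and 93.7 to 259 CPM in the sedentary groups. No macrophage marker was called by edgeR in any comparison, with or without vehicle-trained library 2. For training in vehicle muscle all 8 had an unadjusted edgeR p under 0.05, where 15.2% of genes did. Their median log2 change was 1.11, and 0.88 without that library. In the trained knockout comparison 3 did (17.2% of genes), with a median of -0.78, and -0.70 without that library. None did in the sedentary knockout comparison (9.81% of genes, median 0.25) or for training in knockout-labelled muscle (9.71%, median 0.0079). The markers' part in the Igf1 values was not tested. The 2 genes that ordered the samples most like Igf1 were Tgfbr2 (Spearman rho 0.913) and Dapk1 (0.903).

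Igfbp5, the most abundant member, encodes a secreted protein that binds IGFs. Sedentary vehicle samples held 745.5, 822, 584, 737.5 and 911 CPM and knockout-labelled sedentary samples 467, 572, 451, 439 and 421 CPM. Trained vehicle samples held 772, 21.6, 709, 874 and 598 CPM, and knockout-labelled trained samples 251, 258 and 296 CPM. Every knockout-labelled sedentary sample lay below every vehicle sedentary one, and the knockout-labelled trained samples lay below all of these. Vehicle-trained library 2, at 21.6 CPM, was 34.2-fold below the mean of the rest of its group. The log2 difference was -0.76 (SE 0.490, edgeR adjusted p = 0.773) in sedentary and -1.08 (SE 0.586, edgeR adjusted p = 0.359) in trained muscle. Without that library it was -0.75 (SE 0.131), 1.68-fold lower, in sedentary muscle (edgeR adjusted p = 0.000825) and -1.38 (SE 0.164), 2.61-fold lower, in trained muscle (edgeR adjusted p = 2.21e-05), and the trained groups no longer overlapped, as for 14.5% of genes. An edgeR fit of the 10 sedentary samples alone also called it in sedentary muscle (adjusted p 0.00100).

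Over training, the ranges of Igfbp5 overlapped in vehicle muscle, where the 4 other trained libraries averaged 738 ± 116 CPM (SD) and the sedentary samples 760 ± 121 CPM (SD, n = 5). In knockout-labelled muscle the means were 469.8 ± 59.2 CPM (SD, n = 5) when sedentary and 268 ± 24.1 CPM (SD, n = 3) when trained, with no overlap. The log2 change there was -0.66 (SE 0.576, edgeR adjusted p = 0.843), and without vehicle-trained library 2 it was -0.65 (SE 0.154) with an adjusted p of 0.0532, just outside the threshold. The interaction was -0.32 (SE 0.747, edgeR adjusted p = 0.918), or -0.63 (SE 0.205, adjusted p 0.277) without that library. Igfbp5 ordered the 18 samples most like Adra1a (Spearman rho 0.955) and Ifit3b (0.951).

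Igf1r, the receptor gene, varied little outside 1 library. It lay between 20.6 and 30.8 CPM in 17 of the 18 samples, with vehicle-trained library 2 at 123 CPM, 5.08 times the mean of the rest of its group. Without that library the log2 difference was 0.054 (SE 0.0939) in sedentary and -0.0084 (SE 0.113) in trained muscle, against 0.048 (SE 0.389) and -0.93 (SE 0.461) with it. The trained knockout-labelled samples, at 21.4 to 24.3 CPM, all lay below the sedentary ones, at 25.2 to 30.8 CPM, but the log2 change was small (-0.10, SE 0.450, or -0.098, SE 0.109, without that library). Of the 12 tested genes of the list of other IGF ligands, receptors and binding proteins, edgeR called 0 in any comparison, with 2 at an unadjusted p under 0.05 in each knockout comparison (all genes: 9.81% in sedentary and 17.2% in trained muscle). When vehicle-trained library 2 was omitted, Igfbp7 was called higher in sedentary and Pappa, a protease that cuts IGF-binding proteins, lower in trained knockout-labelled muscle, where 6.98% and 8.66% of all tested genes were called.

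Downstream of the receptor, edgeR with all 18 samples called neither Irs1 nor Eif4ebp1 in any comparison. Irs1, the docking protein gene, averaged 47.0 ± 6.71 CPM in vehicle and 53.5 ± 9.81 CPM in knockout-labelled sedentary muscle (SD, n = 5 each), and 46.8 ± 10.5 CPM (SD, n = 5) and 40.2 ± 5.17 CPM (SD, n = 3) in the trained groups. Its log2 changes lay within 2 SE of 0 in all 5 contrasts. Eif4ebp1, the gene of the translation inhibitor 4E-BP1, averaged 35.2 ± 3.64 CPM in vehicle and 27.9 ± 4.70 CPM in knockout-labelled sedentary samples (SD, n = 5 each), a log2 change of -0.39 (SE 0.611, edgeR adjusted p = 0.989). That comparison was called when the 10 sedentary samples were fitted alone (edgeR adjusted p 0.0364), and limma-voom with sample quality weights called Eif4ebp1 higher after training in knockout-labelled muscle (log2 change 0.47, adjusted p 0.0247). Vehicle-trained library 2 held 415 CPM of Eif4ebp1, 12.5 times the mean over the rest of its group, which lay between 26.0 and 36.3 CPM. With it, the log2 difference in trained muscle was -1.79 (SE 0.751), and without it 0.025 (SE 0.170).

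The lists of other genes downstream of the receptor gave 0 calls in every comparison with all samples. In the list from the insulin receptor substrates to mTOR, 35 genes were tested, and 4 in sedentary and 12 in trained muscle had an unadjusted p under 0.05. Among 17 tested genes of cap-dependent translation these numbers were 4 and 1, and among 8 FOXO-linked targets 1 and 4. The same level was reached by 9.81% of all tested genes in sedentary and 17.2% in trained muscle. Without vehicle-trained library 2, the first list had 6 genes called higher (Pik3ca, a catalytic subunit of PI3 kinase, Sesn1, Sesn3, Grb10, Rictor and Sh2b2) and 1 lower (Foxo1) in sedentary muscle, and 2 higher (Pik3ca and Grb14) and 1 lower (Foxo1) in trained muscle. In the same fit, Eef2, Eif4e3 and Eif4e of the translation list were called lower in sedentary muscle. That fit called 6.98% of all tested genes in sedentary and 8.66% in trained muscle. The median log2 change of the FOXO-linked targets in trained muscle was -1.15 with that library and 0.078 without it.

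Among the 45 pairs of members, the 3 highest Spearman correlations over the 18 samples joined the 3 genes above: Igf1 with Igfbp5 (0.645), Mstn with Igf1 (0.616) and Mstn with Igfbp5 (0.589). The lowest was Acvr2b with Eif4ebp1 (-0.657). These are descriptions over samples that share group membership and vehicle-trained library 2. By the same measure the genes most like the other members were Slc4a4 (0.907) and Adamts1 (0.905) for Mstn, Fam102b (0.932) and Wasf2 (0.917) for Fst, Zbed5 (0.825) and Srgap1 (0.715) for Fstl3, and Tent4b (0.920) and Gga3 (0.882) for Acvr2b. For Igf1r they were Esco1 (0.924) and Zfx (0.889), for Eif4ebp1 Ppp1r1a (0.946) and H4c8 (0.924), and for Irs1 Pvr (0.835) and Kpnb1 (0.831).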

How the data were processed

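Mouse hindlimb muscle RNA was sequenced in 20 libraries. The deposited table holds estimated counts per gene, although it carries the name of another unit: its columns sum to different totals, and 72.0% of values are exactly whole, with no tolerance. The submitters' processing notes name Partek, STAR 2.7.8a, DESeq2 and the builds mm10 and GRCm39, with no role for each. The quantification settings, annotation and strandedness are not given in the sources used here. No gene summed to under 10 over the libraries.

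The estimated counts, as deposited by the authors, were rounded to whole numbers. Library pairs whose squared differences at 1000 to 10000 counts stayed below 1.5 times those at 10 to 100 counts, relative to Poisson noise, were summed; that limit was set after the values were seen, and 2 of 190 pairs met it. Genes with at least 1 CPM in at least 5 of 20 libraries were tested with edgeR 4.0.16 (R 4.3.3), quasi-likelihood F test, TMM scaling, 4 group means, two-sided, Benjamini-Hochberg adjustment and a threshold of 0.05. Alternatives were RLE scaling, no filter, DESeq2 1.42.0, limma-voom with sample quality weights (limma 3.58.1), 20 separate libraries, a replicate block, only the groups compared, and each sample left out in turn. The edgeR test was also run on simulated data that held no library set apart like vehicle-trained library 2. That run cannot show how the test behaves with such a library. GENCODE M21 served for exon lengths and overlaps, and RefSeq (GRCm38.p6) for promoters.

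The members, the 6 pathway lists (128 genes, 118 tested) and the 9 lists of cell markers were chosen with earlier results of these data known. Genes named are all members, the targeted gene, called genes of a pathway list (at most 6 per comparison, largest changes first) and, for each member, the 2 genes most like it by Spearman correlation; genes called only without vehicle-trained library 2 were named after their values were seen. Of the marker lists, none had a call with all 18 samples. Without vehicle-trained library 2, Col3a1 (fibroblast) and Cdh15 (satellite cell) were called higher in sedentary knockout-labelled muscle, where 6.98% of all tested genes were called. Cdh15, Mylpf (muscle fibre) and Thbs4 (tenocyte) were called higher in trained knockout-labelled muscle, where 8.66% were. The macrophage, endothelial, adipocyte, Schwann cell and blood lists had no call in that fit. At library totals of 10610333 to 19153527, counting error bears most on Fstl3. DESeq2 gave no adjusted p for some members, which its counts treat as not called.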

Additional observations from a re-analysis of the deposited data

Results flagged for a closer look

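In groups of 4 or 5 samples, a sample was singled out when its gap to the nearest other sample took up most of the group's range. Of 45 groups tested over the 10 members and the 5 called pathway genes, 5 held such a sample, where chance singles out about 1 in 20 groups, or 2.25 here. Vehicle-trained library 2 accounted for 3 of them, with Eif4ebp1 at 415 CPM, Igf1r at 123 CPM and Fst at 27.7 CPM, all above the rest of its group. The others were Acvr2b at 7.64 CPM in knockout-labelled sedentary library 1 and Tgfb3 at 39.2 CPM in vehicle-trained library 1, each the highest of its group. No cause was tested for any of them.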

How the results depend on the processing

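The count of members called was the same under RLE scaling, without the filter on low counts, with DESeq2 and with 20 separate libraries, namely 0 in sedentary muscle, 2 in trained muscle and 0 for training and interaction. Members to which DESeq2 gave no adjusted p entered its counts as not called. With limma-voom and sample quality weights it was 2, 5, 0 (training, vehicle), 3 (training, knockout-labelled) and 1 (interaction). With only the groups compared it was 3 in sedentary and 0 in trained muscle, where the genes called over all fell from 473 to 20 and, in sedentary muscle, rose from 334 to 1177. Leaving out 1 sample gave 0 to 1 in sedentary and 1 to 3 in trained muscle. Over all genes, calls without vehicle-trained library 2 numbered 1002 and 1244, and limma-voom with quality weights, in which that library had a weight of 0.0470, gave 1325 and 4093. In the knockout-labelled trained group the weights ran from 0.332 to 5.31, the highest for the summed libraries 3 and 5. DESeq2 gave 537 and 907 genes, and 15, 198 and 26 for training in vehicle muscle, training in knockout-labelled muscle and the interaction.

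Sample quality weights turned the log2 change of Eif4ebp1 in trained muscle to 0.089, and in vehicle training that of Igf1r to -0.031, of Eif4ebp1 to -0.015 and of Irs1 to -0.034. In the interaction they turned Eif4ebp1 to 0.48 and Acvr2b to -0.068. With only the groups compared and no vehicle-trained library 2, an alternative chosen after seeing the data, Eif4ebp1 (0.015) and Acvr2b (-0.098) in trained muscle and Igf1r (-0.025), Eif4ebp1 (-0.048) and Irs1 (-0.0084) in vehicle training also turned. Leaving out 1 sample turned 12 of 50 changes, none of them called. In sedentary muscle Acvr2b ran from -0.060 to 0.14. In trained muscle Fstl3 ran from -0.30 to 0.024, Acvr2b from -0.20 to 0.47 and Eif4ebp1 from -2.04 to 0.025. For training in vehicle muscle Mstn ran from -0.0054 to 0.18, Igf1r from -0.036 to 1.06, Eif4ebp1 from -0.059 to 2.00 and Irs1 from -0.081 to 0.15, and in knockout-labelled muscle Igf1 from -0.39 to 0.069. In the interaction Fstl3 ran from -0.16 to 0.33, Acvr2b from -0.23 to 0.44 and Eif4ebp1 from -1.65 to 0.41. Of 340 changes under the other planned settings, 320 kept direction and call, where a change without a DESeq2 adjusted p was taken as not called. The cause was not tested.

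With a replicate block on 20 separate libraries, 0 members were called in sedentary and 2 in trained muscle, and no call changed. The numbers are not known to pair the samples. Same-numbered pairs across groups correlated with a median of 0.0187 (-0.323 to 0.285), other pairs with -0.00667 (-0.379 to 0.363). With ranges this wide, these correlations cannot exclude that some numbers mark a pairing.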
